A study of Mus musculus with 4 samples.

Results

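A set of 10 genes of the integrated stress response and of the unfolded protein response of the endoplasmic reticulum (ER) was followed in mouse calf muscle, namely Atf4, Atf6, Ern1, Xbp1, Ddit3, Trib3, Chac1, Asns, Ppp1r15a and Hspa5. They were chosen by name as sensors, transcription factors and targets of these pathways, with earlier results of these data known. Each had its own row among the 23282 gene rows measured. The tissue was the gastrocnemius of male CDF1 mice, a hybrid of the BALB/c and DBA/2 strains. The design crossed treadmill exercise (E) with a tumor (T) raised by injecting CT26 cells, a mouse colorectal carcinoma line, into the tail vein. Below, "tumor-bearing" muscle or libraries are those of mice given these cells, not muscle that held a tumor. The paper saw no tumor growth in the gastrocnemius of the cancer exercise mouse. The 4 groups were normal control (E-T-, sedentary, no tumor), normal exercise (E+T-, high-intensity running every other day, no tumor), cancer control (E-T+, sedentary, tumor) and cancer exercise (E+T+, both). All carry the label postnatal day 28, the age at which the methods have the mice purchased, so the label does not give the age at sampling.

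There was 1 library per group, so no difference below has a replicate check and no p-value is given. The labels name 10 mice per group, whereas the study's text speaks of a representative mouse for sequencing, and whether a library held RNA of several animals was not settled. Whole reads rebuilt from the deposited values summed over genes to 10647477 to 13226067 per library. These sums are approximate, because not every value fits a single read count, and they are not the numbers of sequenced reads. Reads came from the 3′ ends of polyadenylated transcripts, without molecular identifiers. Values are normalized read counts, and whole reads, rebuilt from them, are given beside these where they matter. A change is a difference of log2(normalized count + 1), and "higher" or "lower" marks a change of at least 2-fold with a normalized count of at least 4 in 1 or both libraries. Intervals are 95% Clopper-Pearson intervals of the read shares turned into log2 ratios, and they cover counting error only. In whole muscle, fewer cells of a type and less RNA per cell cannot be told apart. All 8 skeletal myofibre markers examined, among them Acta1, Ckm and Myh4, had reads in every library.

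In the integrated stress response, kinases that sense different stresses (PERK for unfolded protein in the ER, GCN2 for uncharged tRNA, HRI for heme shortage, PKR for double-stranded RNA) phosphorylate the initiation factor eIF2, which slows general protein synthesis while the mRNA of the transcription factor ATF4 is translated more. ATF4 raises genes of amino acid supply and of stress adaptation, and also feedback genes such as Ppp1r15a, whose product GADD34 brings a phosphatase to eIF2. The unfolded protein response adds 2 further sensors in the ER membrane, IRE1 (Ern1), which splices the mRNA of Xbp1 into its active form, and ATF6, which is cut free to enter the nucleus, and both raise ER chaperones such as Hspa5. Counts of 3′ reads do not show phosphorylation, translation, splicing or cleavage, so the values below are mRNA abundance and not pathway activity.

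Reference promoters show where the known response elements lie in these genes. RefSeq promoter windows on GRCm38.p6, from 250 bases before to 50 bases after the start of the transcript, were given for 9 of the 10 genes (not for Atf6) and were searched on both strands. The windows of 4 genes that carry an element are printed 5′ to 3′ up to the last base before the start site, because these 4 include the gene that moved most with the tumor (Ppp1r15a), the gene that moved most with exercise (Chac1), the chaperone of the set (Hspa5) and the amino acid synthesis gene (Asns). Capitals mark the element.
Chac1 (chr2:119350992-119351241, plus strand): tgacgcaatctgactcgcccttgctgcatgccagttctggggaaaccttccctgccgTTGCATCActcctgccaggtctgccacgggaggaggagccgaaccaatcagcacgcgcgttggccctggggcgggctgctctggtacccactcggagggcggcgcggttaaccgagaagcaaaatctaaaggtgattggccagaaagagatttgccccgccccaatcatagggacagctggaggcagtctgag
Asns (chr6:7693210-7693459, minus strand): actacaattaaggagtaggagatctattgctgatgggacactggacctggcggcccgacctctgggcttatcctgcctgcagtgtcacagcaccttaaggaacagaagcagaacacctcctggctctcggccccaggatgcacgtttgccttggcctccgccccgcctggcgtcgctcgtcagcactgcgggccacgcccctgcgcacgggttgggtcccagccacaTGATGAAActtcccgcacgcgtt
Ppp1r15a (chr7:45526269-45526518, minus strand): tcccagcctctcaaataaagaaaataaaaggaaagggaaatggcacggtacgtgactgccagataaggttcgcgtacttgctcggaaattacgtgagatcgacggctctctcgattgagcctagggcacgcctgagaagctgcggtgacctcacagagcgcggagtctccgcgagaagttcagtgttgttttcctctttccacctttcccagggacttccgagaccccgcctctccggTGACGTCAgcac
Hspa5 (chr2:34771840-34772089, plus strand): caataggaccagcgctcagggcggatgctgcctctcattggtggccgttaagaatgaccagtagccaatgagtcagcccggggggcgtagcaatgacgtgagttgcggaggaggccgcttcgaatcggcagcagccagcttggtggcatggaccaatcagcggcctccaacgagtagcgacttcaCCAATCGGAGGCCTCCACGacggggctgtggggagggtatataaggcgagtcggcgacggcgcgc
In Chac1 the capitals are the C/EBP-ATF sequence TTGCATCA, at positions -193 to -186 from the start site. In Asns they are TGATGAAA, a match to TGATGNAA of the same family, at -23 to -16. Trib3 held that family on the other strand, at 15 to 22. TGATGNAA occurred in 3.97% of the 32851 promoter windows in the table, and TTGCATCA, each copy of which also holds TGATGNAA on the other strand, in 0.895%. In Ppp1r15a the capitals are a full cAMP response element, at -12 to -5, in which TGACGT reads on both strands; 7.51% of windows held TGACGT. In Hspa5 they are an ER stress response element, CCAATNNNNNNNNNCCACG, at -65 to -47, found in 39 windows (0.119%), and Hspa5 also held TGACGT farther upstream. The windows of Atf4 and Ddit3 held only CCAAT, which 37.4% of windows held, and in those of Xbp1 and Ern1 none of these letters were found. The element TGACGTGG (0.676% of windows) was in none of the 9. A match is a description of the letters and not of a bound site.

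The tumor without exercise went with the widest change in the set. In E-T+ compared with E-T-, 6 of the 10 genes were higher (Atf4, Atf6, Xbp1, Trib3, Ppp1r15a and Hspa5) against 20.9% of the 14818 genes that met the minimum, and 2 were lower (Ern1 and Chac1) against 24.2%. The median change of the 10 genes was 1.20 on the log2 scale, beside -0.04 for all genes tested. Between tumor-bearing and tumor-free exercised muscle, 5 were higher (Ern1, Xbp1, Chac1, Ppp1r15a and Hspa5; 13.9% of 14470 genes) and 0 were lower (16.3%), with a median of 0.92 beside -0.03. Exercise without tumor left 1 gene higher (Ddit3; 9.44% of 14518 genes) and 2 lower (Ern1 and Chac1; 12.1%), with a median of -0.22 beside -0.01. Exercise in tumor-bearing muscle left 1 gene higher (Ern1; 15.6% of 14491 genes) and 2 lower (Trib3 and Ppp1r15a; 15.1%), with a median of -0.53 beside 0.01. The calls on Ern1 rest on 9 reads or fewer and were lost with a minimum count of 16. Under that minimum 2 of the 10 genes stayed called with exercise without tumor and 7 with the tumor without exercise. With exercise with tumor 2 stayed called, and with the tumor with exercise 4. Over all genes 1741, 5126, 2966 and 2955 stayed called in the same order, but their shares at that minimum are not given. Each library enters 2 of the 4 comparisons, so these counts are not independent of each other. The set was chosen with earlier results of these data known, so its counts beside those of all genes are a description.

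**Figure D1:**
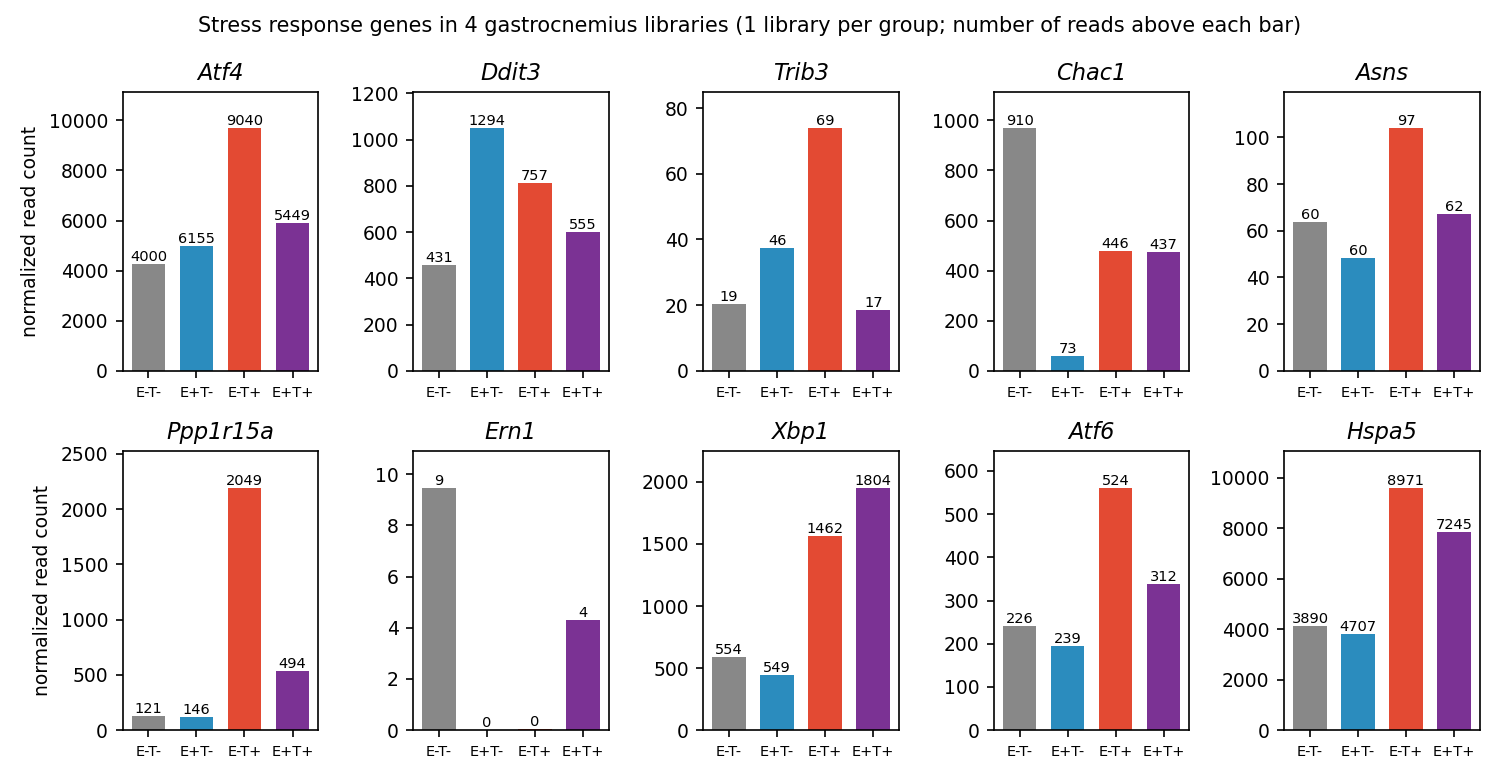
Normalized read count (vertical axis, from 0) of the 10 stress response genes in the libraries E-T-, E+T-, E-T+ and E+T+, 1 bar per library, with the number of reads above each bar. The E-T+ bar is the tallest for Atf4, Trib3, Asns, Ppp1r15a, Atf6 and Hspa5, while Chac1 is tallest in E-T- and lowest in E+T-.

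Atf4 encodes the transcription factor at the center of the integrated stress response. Its normalized count was 4254 in E-T-, 4990 in E+T-, 9680 in E-T+ and 5901 in E+T+. E-T+ stood above the other 3 libraries. The tumor change without exercise was 1.19 (interval 1.13 to 1.24), and with exercise 0.24 (0.19 to 0.29). Exercise in tumor-bearing muscle gave -0.71 (-0.76 to -0.67), a 1.64-fold difference under the 2-fold limit. The gene lies at chr15:80255184-80257541 on the plus strand (GRCm38, GENCODE, as for all positions that follow).

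Ppp1r15a, the feedback gene of eIF2 dephosphorylation, had the widest range of the 10 genes. It stood at 129 in E-T- and 118 in E+T-, and at 2194 in E-T+ and 535 in E+T+, which is 121, 146, 2049 and 494 reads. The tumor-free libraries did not differ beyond counting error (-0.12, interval -0.48 to 0.24). E-T+ was 16.9-fold above E-T- (4.08, 3.83 to 4.37), E+T+ was 4.50-fold above E+T- (2.17, 1.91 to 2.45), and within tumor-bearing muscle exercise went with a 4.10-fold lower count (-2.03, -2.18 to -1.89). Ppp1r15a (chr7:45522916-45526268, minus strand) overlaps Tulp2 on the opposite strand at its 3′ end. Tulp2, a Tubby family gene, was likewise highest in E-T+, with 15, 21, 132 and 41 reads in E-T-, E+T-, E-T+ and E+T+. Whether counting used strand is not stated, so reads of the 2 genes cannot be told apart in this overlap, although Tulp2 held far fewer than Ppp1r15a.

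Ddit3 encodes CHOP, a factor that ATF4 raises and that is known for its link to cell death under lasting ER stress. Its order differed from that of Atf4. It was 459 in E-T-, 1049 in E+T-, 811 in E-T+ and 601 in E+T+. E+T- was the highest library, 2.28-fold above E-T- (1.19, interval 1.04 to 1.35). The tumor change was 0.82 (0.65 to 0.996) without exercise and -0.80 (-0.95 to -0.66) with exercise, both under 2-fold and of opposite sign. Exercise in tumor-bearing muscle gave -0.43 (-0.59 to -0.27). The difference of Ddit3 from Atf4, as log2 counts within a library, was -3.21, -2.25, -3.58 and -3.29 in E-T-, E+T-, E-T+ and E+T+. Ddit3 (chr10:127290774-127296288, plus strand) overlaps the 3′ end of Mars, the methionyl-tRNA synthetase gene, on the opposite strand. Mars read 699, 1140, 1732 and 1189 in the same order, highest in E-T+ where Ddit3 was not, and the share of reads that may pass between the 2 genes was not tested.

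Trib3, a pseudokinase that restrains ATF4 and CHOP, was low in every library. Its counts were 20.2, 37.3, 73.8 and 18.5 in E-T-, E+T-, E-T+ and E+T+, from 19, 46, 69 and 17 reads. E-T+ was the highest, and E+T+ was the lowest, next to E-T-. The tumor change was 1.82 (interval 1.12 to 2.69) without exercise and -0.97 (-1.91 to -0.19) with exercise. Exercise gave 0.85 (0.08 to 1.74) without tumor and -1.94 (-2.86 to -1.22) with tumor, a 3.84-fold lower count. Trib3 lies at chr2:152337422-152344032 on the minus strand.

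Chac1 degrades glutathione and is a well known target of ATF4 and CHOP. Its counts were 968 in E-T-, 59.0 in E+T-, 478 in E-T+ and 473 in E+T+, from 910, 73, 446 and 437 reads. E+T- was by far the lowest library, 16.1-fold below E-T- (-4.01, interval -4.40 to -3.69), and E-T- was the highest. The tumor change was -1.02 (-1.19 to -0.85) in sedentary muscle, a call that scaling by total reads or by the median of ratios removed, and 2.98 (2.64 to 3.38) in exercised muscle. The tumor-bearing libraries did not differ beyond counting error (-0.01, -0.21 to 0.18). The drop in E+T- went against Ddit3, which was highest there, and the difference of Chac1 from Atf4 within a library was -2.14, -6.38, -4.34 and -3.64 on the log2 scale in E-T-, E+T-, E-T+ and E+T+. Liver and red cell markers were also lowest in E+T-. The summed count of 6 hepatocyte markers (all 6 with reads in every library) was 2024, 211, 2317 and 1212 in that order. That of 6 red cell markers was 249009.97, 51514, 235229.7 and 504578, with all 6 having reads in every library but E-T+, where 5 had. Their part in the Chac1 values was not tested. Chac1 lies at chr2:119351229-119354381 on the plus strand.

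Asns, asparagine synthetase and a standard readout of amino acid shortage, was not past 2-fold in any comparison. Its counts were 63.8, 48.6, 103.8 and 67.2 in E-T-, E+T-, E-T+ and E+T+, from 60, 60, 97 and 62 reads. E-T+ was the highest. The tumor change was 0.69 (interval 0.22 to 1.19) without exercise and 0.46 (-0.07 to 1.002) with exercise, and the exercise change was -0.39 (-0.93 to 0.15) without tumor and -0.62 (-1.11 to -0.15) with tumor. E-T- and E+T-, and E+T- and E+T+, did not differ beyond counting error. Asns lies at chr6:7675169-7693254 on the minus strand.

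Of the ER branches, Ern1, which encodes the IRE1 sensor, was barely detected. It had 9 reads in E-T-, 0 in E+T-, 0 in E-T+ and 4 in E+T+. With the floor of 3 reads set for a library without reads, E+T- was at least 3.94-fold and E-T+ at least 2.98-fold lower than the 9 reads of E-T-. Once the counting error of those 9 reads is included, the upper bounds were -1.37 and -0.97 on the log2 scale, the second of them short of 2-fold. The 4 reads of E+T+ did not differ from 0 reads beyond counting error, the lower bounds being -0.58 against E-T+ and -0.18 against E+T-. At such counts no order of E+T-, E-T+ and E+T+ can be read, and the 4 reads of E+T+ were not compared with the 9 of E-T-. Ern1 lies at chr11:106394650-106487852 on the minus strand.

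Xbp1, whose mRNA IRE1 splices, was measured well and followed the tumor in both exercise states. Its counts were 589 in E-T-, 445 in E+T-, 1565 in E-T+ and 1954 in E+T+. Both tumor-bearing libraries lay above both tumor-free ones, and E+T+ was the highest. The tumor change was 1.41 (interval 1.27 to 1.55) without exercise and 2.13 (1.996 to 2.27) with exercise, 2.65-fold and 4.38-fold. Exercise gave -0.40 (-0.58 to -0.23) without tumor and 0.32 (0.22 to 0.42) with tumor. The 3′ counts hold both the spliced and the unspliced form. Xbp1 lies at chr11:5520659-5525893 on the plus strand.

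Atf6, the third ER sensor, read 240.4 in E-T-, 194 in E+T-, 561 in E-T+ and 338 in E+T+. The tumor-bearing libraries were again above the tumor-free ones, E-T+ most. The tumor change was 1.22 (interval 0.995 to 1.45) without exercise, 2.33-fold, and 0.80 (0.55 to 1.05) with exercise, 1.74-fold. Exercise gave -0.31 (-0.58 to -0.04) without tumor and -0.73 (-0.94 to -0.53) with tumor. Atf6 lies at chr1:170704674-170867771 on the minus strand.

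Hspa5 encodes BiP, the main ER chaperone and a classical target of ATF6. Its counts were 4138 in E-T-, 3815 in E+T-, 9607 in E-T+ and 7846 in E+T+. The tumor-bearing libraries were 2.32-fold (1.21, interval 1.16 to 1.27) and 2.06-fold (1.04, 0.99 to 1.09) above their tumor-free counterparts, without and with exercise; the latter was 0.88 with libraries scaled by total reads, under 2-fold. Exercise gave -0.12 (-0.18 to -0.06) without tumor, a sign that turned to 0.04 when libraries were scaled by total reads, and -0.29 (-0.34 to -0.25) with tumor. The difference of Hspa5 from Xbp1 within a library was 2.81, 3.10, 2.62 and 2.01 in E-T-, E+T-, E-T+ and E+T+. Hspa5 lies at chr2:34771970-34777547 on the plus strand.

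**Figure D2:**
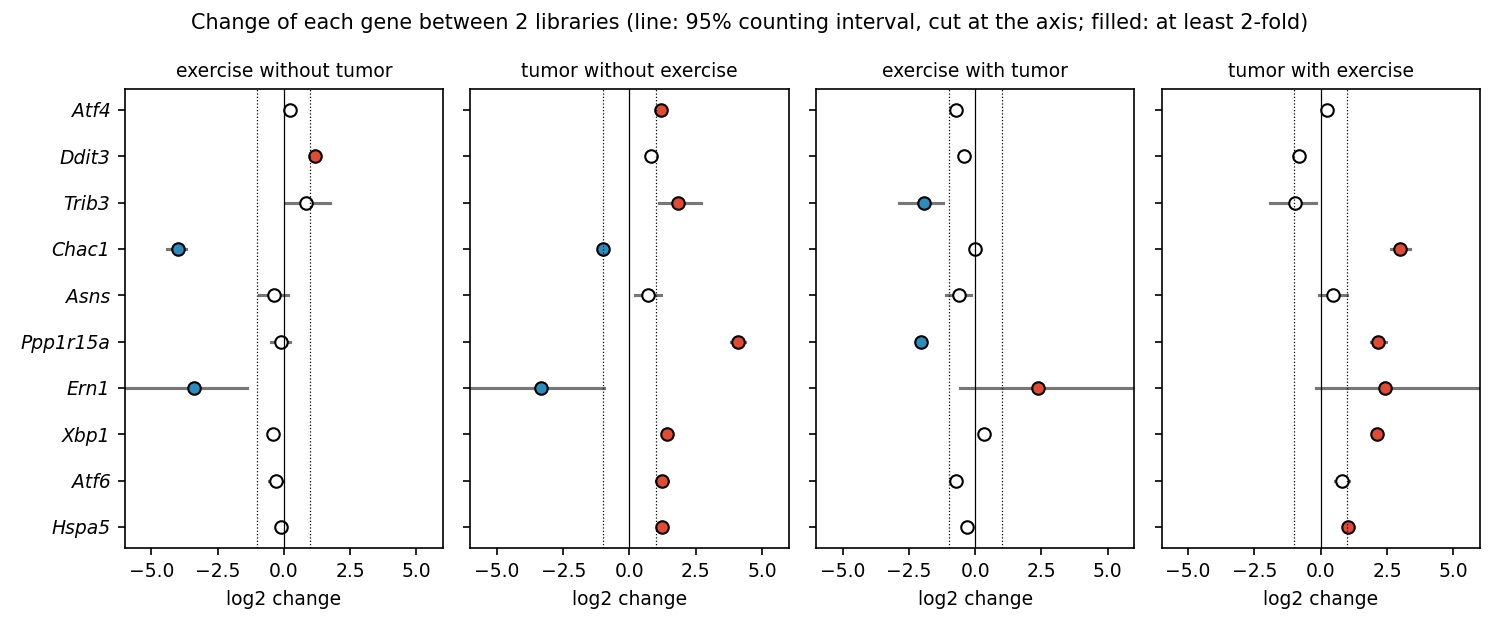
log2 change of each of the 10 genes in the 4 comparisons (horizontal axis; dotted lines at 2-fold; filled points past it, red higher and blue lower; gray lines are 95% counting intervals, which for Ern1 run past the axis). In the tumor comparison without exercise 6 points are past 2-fold on the right, whereas in the tumor comparison with exercise Atf4, Atf6 and Trib3 lie short of it.

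The tumor change in exercised muscle minus that in sedentary muscle, which by construction equals the exercise change with tumor minus that without, differed between the genes. It was -2.79 for Trib3, -1.91 for Ppp1r15a, -1.62 for Ddit3 and -0.94 for Atf4. It was closer to 0 for Hspa5 (-0.17), Asns (-0.23) and Atf6 (-0.42). It was positive for Xbp1 (0.72), Chac1 (4.00) and Ern1 (5.76, from at most 9 reads). Of the known targets of ATF4 among them, Trib3, Ppp1r15a, Ddit3 and Asns were negative and Chac1 alone was positive. The Chac1 value comes from its exercise change without tumor (-4.01), as that with tumor was -0.01, and so from the low E+T- library. With 1 library per group, these differences could not be tested against replicate spread.

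**Figure D3:**
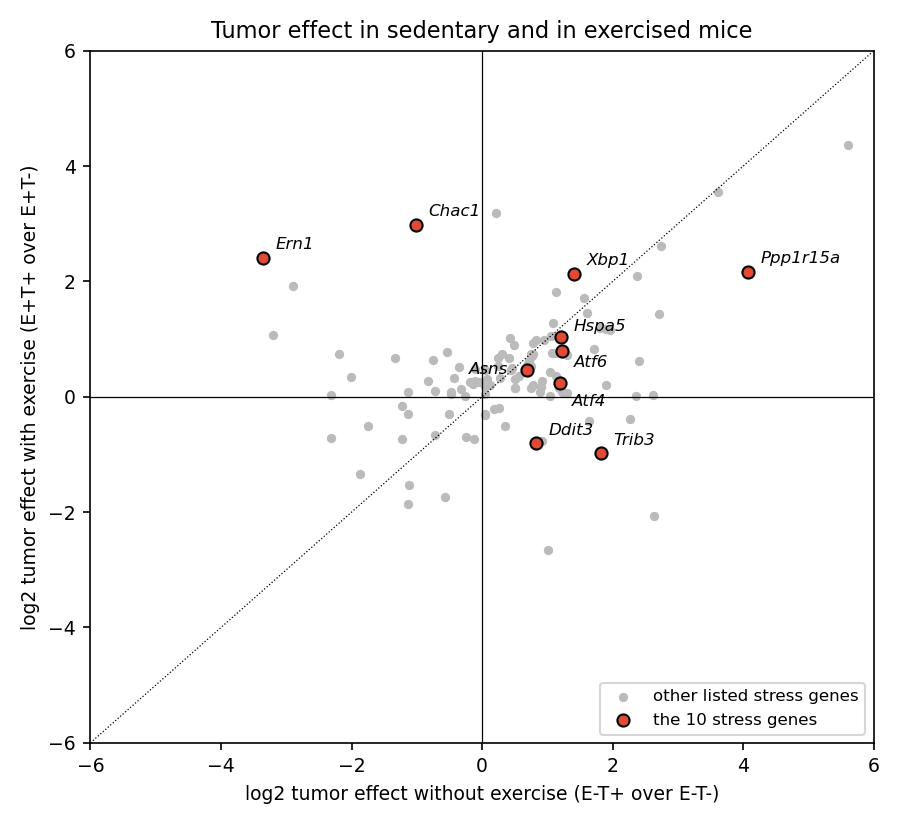
log2 tumor change in exercised muscle (E+T+ over E+T-, vertical axis) against that in sedentary muscle (E-T+ over E-T-, horizontal axis) for the 10 genes (red) and the other listed stress genes (gray), with the line of equal change dotted. Hspa5, Atf6 and Asns lie near the line, Xbp1 above it, Atf4, Ddit3, Trib3 and Ppp1r15a below it, and Chac1 and Ern1 in the upper left.

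Around these 10 genes, 111 further genes of the pathways were put into 8 lists by role, and 108 of them had reads. The lists, too, were chosen with earlier results of these data known. With the tumor and no exercise 31 of 106 tested were higher and 15 lower, with a median of 0.45, and with the tumor in exercised muscle 16 of 101 were higher and 5 lower, with a median of 0.33. Exercise without tumor left 4 of 103 higher and 12 lower, with a median of 0.05, and exercise with tumor left 6 of 104 higher and 13 lower, with a median of -0.04. The shares and medians of all genes to set beside these, and beside the lists that follow, are those given above for the same comparisons.

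Few genes of the upstream machinery were called. Of 12 genes for the eIF2 kinases, the exchange factor eIF2B and the eIF2 phosphatase, 1 was higher and 1 lower with the tumor, both without and with exercise, 0 were called with exercise alone, and 1 was lower with exercise in tumor-bearing muscle. The last was Eif2ak4, which encodes GCN2, with 58, 85, 110 and 37 reads in E-T-, E+T-, E-T+ and E+T+ and a change of -1.53. Eif2b1, the alpha subunit of eIF2B, read 251, 321, 877 and 734 in E-T-, E+T-, E-T+ and E+T+, a tumor change of 1.80 and 1.19 without and with exercise. Eif2ak1, the heme-sensing kinase HRI, read 1430, 2228, 660 and 773, a tumor change of -1.12 and -1.53. Eif2ak4 and the PERK gene Eif2ak3 are named after their values were seen. Eif2ak3 had 34, 41, 31 and 18 reads and was not past 2-fold in any comparison.

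Among ATF4 partners and stress-induced factors (12 genes, 10 tested), 4 were higher and 2 lower with the tumor in sedentary muscle, and 4 were higher and 1 lower in exercised muscle. Ddit4, which encodes the mTORC1 inhibitor REDD1, read 360 in E-T-, 380 in E+T-, 17486 in E-T+ and 7874 in E+T+. That was a tumor change of 5.60 without and 4.37 with exercise, and an exercise change of -1.15 with tumor. Atf3, Cebpb and Eif4ebp1 were the other 3 that were higher with the tumor in both exercise states. Eif4ebp1, the repressor of cap-dependent translation, read 1107, 1188, 13596 and 13891, and Atf3 read 42.6, 23.3, 290.0 and 147 in the same order; both were named after their values were seen. Atf5, a relative of ATF4 with its own stress-controlled translation, read 1010, 2159, 459 and 591, higher with exercise (1.10) and lower with the tumor (-1.13 without and -1.87 with exercise). Nupr1, a stress-induced chromatin protein, read 434, 222, 185 and 133. Fgf21, a hormone released by stressed muscle and liver, had 0 reads in all 4 libraries, which allows a share of up to 2.27e-05% to 2.82e-05% of reads.

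The amino acid synthesis and transport genes (17 listed, 15 or 16 tested) were divided. In sedentary muscle 7 were higher with the tumor (Psat1, Pycr1, Cbs, Slc7a11, Slc7a5, Slc3a2 and Slc7a1), beside 20.9% of all genes. In the same comparison 4 were lower (Psph, Aldh18a1, Slc1a4 and Slc1a5), beside 24.2%. Exercise in tumor-bearing muscle, a comparison that shares E-T+ with the former, left 2 higher (Psph and Aldh18a1) and 7 lower (Psat1, Phgdh, Pycr1, Cbs, Slc7a11, Slc7a5 and Slc7a1). Exercise without tumor left 2 of 15 higher (Slc7a5 and Slc3a2) and 6 lower (Phgdh, Mthfd2, Aldh18a1, Cth, Slc7a11 and Slc1a5). The tumor in exercised muscle left 3 of 15 higher (Aldh18a1, Cth and Cbs) and 3 lower (Phgdh, Slc7a11 and Slc1a4). Several of these calls rest on few reads. Pycr1 had 4 reads in E-T+ and 0 elsewhere and met the minimum only through that library, and Slc7a11, the cystine transporter, had 12, 7, 25 and 0 reads in E-T-, E+T-, E-T+ and E+T+. Slc7a1, the cationic amino acid transporter, read 39.4, 61.5, 213 and 95.3 in E-T-, E+T-, E-T+ and E+T+. Slc1a4, a neutral amino acid transporter, read 22.3, 15.4, 5.40 and 5.47. Cth, which makes cysteine from cystathionine, had 57, 6, 66 and 47 reads, low in E+T- alone, a change of -3.43 with exercise without tumor and of 3.19 with the tumor in exercised muscle. This is the library in which Chac1 was low and in which the hepatocyte and red cell markers were low. The part of these markers in the Cth values was not tested.

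The cytosolic aminoacyl-tRNA synthetases, which load amino acids onto tRNA and many of which ATF4 raises, numbered 20. With the tumor in sedentary muscle 7 were higher (Aars, Eprs, Gars, Iars, Mars, Sars and Vars) and 1 lower (Yars), and in exercised muscle 3 were higher (Eprs, Iars and Vars) and 0 lower. Exercise called 0 of them with or without tumor. Vars, the valyl enzyme, read 96.8, 170, 639 and 459 in E-T-, E+T-, E-T+ and E+T+, a tumor change of 2.71 and 1.43. Yars, the tyrosyl enzyme, read 329, 301, 140.3 and 269.6.

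Of 15 ER chaperones and folding enzymes other than Hspa5, 4 were higher and 1 lower with the tumor in sedentary muscle, beside 20.9% and 24.2% of all genes. In exercised muscle 2 were higher (P4hb and Manf), beside 13.9%. Canx, the lectin chaperone calnexin, read 1120, 1324, 2752 and 2189 in E-T-, E+T-, E-T+ and E+T+. Pdia4, a disulfide isomerase, went the other way in sedentary muscle and read 136, 73.8, 33.2 and 94.2. The list medians with the tumor were 0.25 without and 0.52 with exercise. The genes of ER-associated degradation (18 listed, 16 or 17 tested) held 6 higher and 0 lower with the tumor in sedentary muscle (Dnajb9, Edem1, Derl3, Os9, Vimp and Ubxn4), with a list median of 0.75, and 3 higher and 0 lower in exercised muscle, with a median of 0.39. Of the 6, Derl3 had 5 reads in E-T+ and 0 elsewhere and met the minimum only through that library. Edem1, which hands misfolded glycoproteins to degradation, read 64.9, 64.7, 255 and 145. Herpud1, a widely used ER stress marker from the stress-induced factors, stayed between 1727 and 1814 in the 4 libraries, and was named after its values were seen.

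Among 9 ER-bound factors related to Atf6 and their proteases, 8 were tested with the tumor in sedentary muscle, and 4 were lower (Creb3l1, Creb3l2, Creb3l3 and Creb3l4) and 0 higher. With exercise without tumor, which is read against the E-T- library as well, 4 of 8 were lower and 0 higher. Creb3l3 and Creb3l4 had 9, 0, 1 and 0 reads and 8, 0, 0 and 1 reads in E-T-, E+T-, E-T+ and E+T+ and met the minimum only through E-T-, so their calls rest on that filter. Atf6b, the closest relative, had a tumor change of -0.33 in sedentary muscle and Creb3 one of 0.92, neither past 2-fold, and both are named after their values were seen. With the tumor in exercised muscle 0 of 6 were called. Creb3l1, which controls collagen secretion in bone and fibroblasts, read 276, 106, 54.7 and 63.9 in E-T-, E+T-, E-T+ and E+T+. Creb3l2 read 23.3, 8.02, 4.33 and 14.1. The summed count of 8 fibroblast markers, all with reads in every library, was likewise highest in E-T-, at 95114, 44932, 37022 and 37795. Its part in the Creb3l values was not tested.

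Of 8 apoptosis genes downstream of CHOP, 2 were higher and 2 lower with the tumor in sedentary muscle, close to the 20.9% and 24.2% of all genes. In exercised muscle 0 of 7 were called with the tumor. Exercise in tumor-bearing muscle, a comparison that shares E-T+ with the first, left 3 of 8 lower (Bbc3, Pmaip1 and Bax), beside 15.1% of all genes. Pmaip1, 1 of the 2 that were higher and of the 3 that were lower, had 0, 4, 5 and 0 reads in E-T-, E+T-, E-T+ and E+T+. It met the minimum only through E-T+, so both of its calls rest on that filter. Bbc3, which encodes the death effector PUMA, read 43.6, 33.9, 166 and 39.0 in E-T-, E+T-, E-T+ and E+T+, high in E-T+ alone. Casp12, the ER-bound caspase of rodents, read 498, 153, 196 and 246, and was lower with exercise (-1.69) and with the tumor (-1.34) in comparisons that share E-T-.

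**Figure D4:**
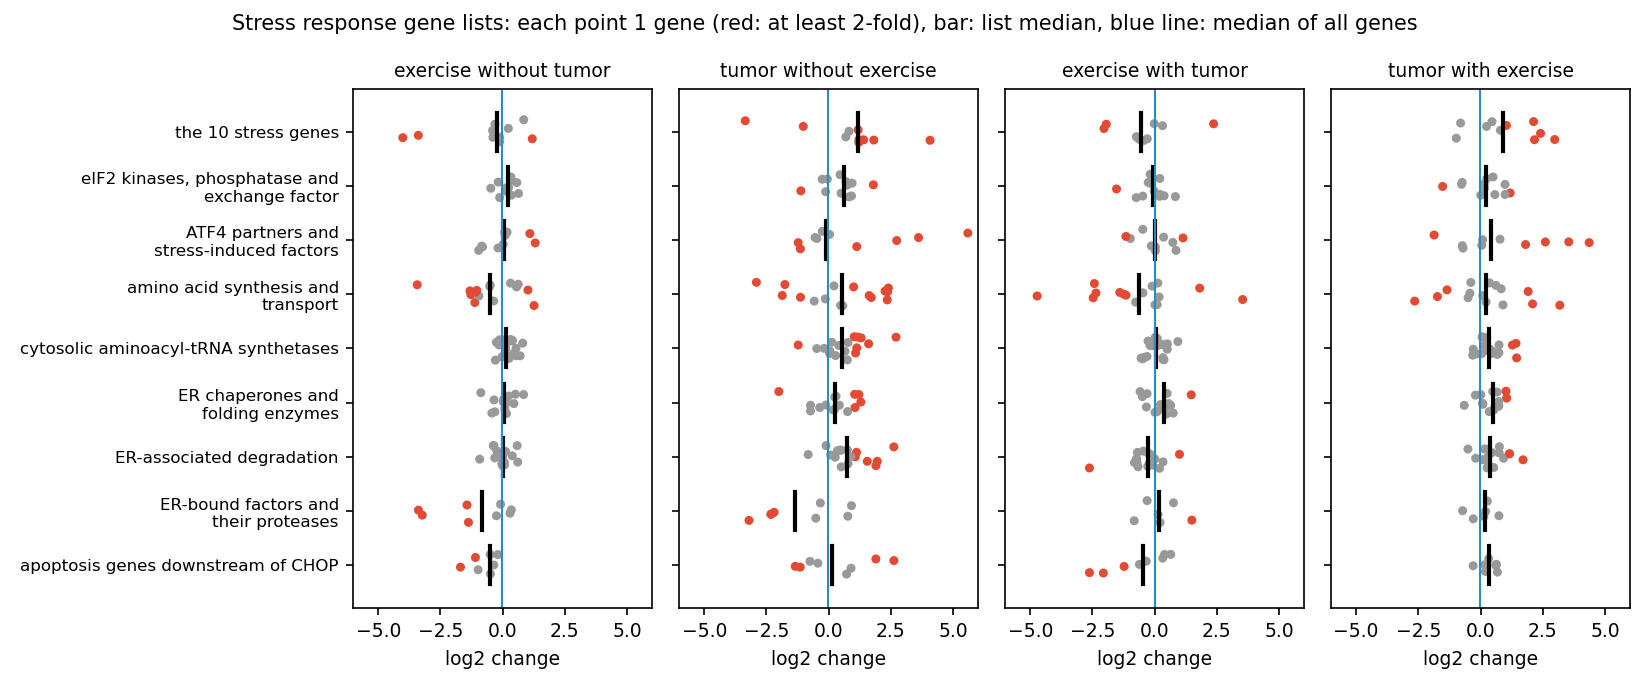
log2 change (horizontal axis) of each tested gene in the 10 stress genes and the 8 lists, for the 4 comparisons; red points are past 2-fold, the black bar is the list median and the blue line the median of all genes tested. In the tumor comparison without exercise the medians of the 10 genes (1.20) and of ER-associated degradation (0.75) lie farthest right and that of the ER-bound factors (-1.35) farthest left. These medians include genes that met the minimum through 1 library only. They are Creb3l3 and Creb3l4 of the ER-bound factors and Ern1 of the 10 genes (E-T-), and Derl3 of ER-associated degradation (E-T+).

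Markers of some other cell types also differed with the tumor, not all in the same direction without and with exercise. The summed count of 10 neutrophil markers was 79.8 and 163 in E-T- and E+T- and 2654 and 1889 in E-T+ and E+T+, with 4, 5, 7 and 7 of 10 having reads and Elane at 0 in all 4 libraries. That of 10 macrophage markers was 4176, 4122, 7112 and 6339, with 9 or 10 of 10 having reads. The 7 keratinocyte markers all had reads in E-T+, with a sum of 776, against 199.95, 196 and 86.6 elsewhere, where 2 or 3 of the 7 had reads. Their sum was thus higher with the tumor in sedentary muscle and lower in exercised muscle. Sums of endothelial, adipocyte, B cell and T cell markers (the last from 28 reads or fewer) also went opposite ways with the tumor without and with exercise. The 8 myofibre markers summed to 1548132, 1241284, 851053 and 974621. Their part in the changes of the stress genes was not tested. For 6 markers of epithelium and carcinoma the sums were 72.3, 44.6, 119 and 56.3, Cdx2 had 0 reads in all 4 libraries, and Epcam had reads in E+T- alone.

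The genes most like Atf4 over the 4 libraries, by the distance between log2 values centered on each gene's mean among 10501 genes, were Trmt6, Dbr1 and Anapc7, with distances of 0.04 to 0.05. Those most like Hspa5 were Pqlc1, C1qa and Sugp1, with distances of 0.04 to 0.05. C1qa, a complement gene of macrophages, read 1132, 1094, 2651 and 2182 in E-T-, E+T-, E-T+ and E+T+. For Chac1, among 13196 genes, they were 2700046G09Rik, Gm527 and Gm15972, at 0.46 to 0.77, all with low counts. With 4 points per gene this is a description of shape.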

How the data were processed

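Polyadenylated RNA of the gastrocnemius was sequenced from its 3′ ends (QuantSeq, single reads of 75 bases), 1 library per group, with groups taken from the sample titles. Per the study's methods and processing notes, the authors aligned reads with Bowtie2 to mm10, counted them per gene with bedtools and applied quantile normalization in edgeR. The deposited log2 values were found to be log2(normalized count + 1), scaled by the authors to a common library size. The annotation, strand setting and handling of reads matching several genes were not given in the sources used here. A total of 23282 rows carried 23238 distinct symbols, and 79 rows shared a symbol.

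Whole reads were rebuilt by inverting the negative binomial quantile adjustment (fitted dispersion 0.340). All values (100%) came out whole within 0.0006 on the log2 scale, and 92.5% to 94.4% of values per library fitted a single read count. The counts of Atf4, Xbp1, Ppp1r15a and Hspa5 are therefore approximate. Some genes with no reads thereby carry values slightly above 0, and for these 0 reads are printed. Scripts were tested on simulated data. With 1 library per group, no count model was run, because the deposited values are not counts and no residual spread exists. Calls needed a 2-fold change and a normalized count of 4, after the study's criterion, whose 4 was read as a linear count. Read on the log2 scale it would be 16, which is among the alternatives and calls fewer genes. At 16, 1741 genes were called with exercise without tumor and 2966 with exercise with tumor, against 3121 and 4437 at 4. The study's own counts for both comparisons lie much nearer to those at 16. The minimum used here is thus probably looser than the study's. One red cell marker is not reported here. The floor was 3 reads per library.

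The members and gene lists were chosen with earlier results of these data known. All 10 members are named; from each list, those with the largest rise and fall with the tumor without exercise and the largest change with exercise without tumor, among called genes with a count of at least 16, and for Atf4, Hspa5 and Chac1 the 3 genes most alike. Others are said to be named after their values were seen, or are listed as called. The alternatives were 3 other scalings (total count, trimmed mean of M values, median of ratios), 2 pseudocounts, 3 minimum counts, a 4-fold limit and an interval requirement. Promoters came from RefSeq (GRCm38.p6) and positions from GENCODE on GRCm38, the build the processing notes name as mm10. Python 3.11.15, numpy 2.4.6, scipy 1.17.1, pandas 2.3.3 and matplotlib 3.10.9 were used.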

Additional observations from a re-analysis of the deposited data

Results flagged for a closer look

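Chac1 and Ern1 were set apart because the same contrast moved them past 2-fold in opposite directions. For Chac1 the tumor change in exercised muscle exceeded that in sedentary muscle by 4.00 on the log2 scale, from -1.02 (446 against 910 reads) to 2.98 (437 against 73 reads). For Ern1 the corresponding difference was 5.76 for the tumor change and 5.76 for the exercise change, which are the same quantity by construction and rest on 9, 0, 0 and 4 reads in E-T-, E+T-, E-T+ and E+T+. The fall of Chac1 in sedentary muscle was under 2-fold with scaling by total count (-0.95) or by the median of ratios (-0.98). The 4 reads of Ern1 in E+T+ did not differ from 0 reads beyond counting error. Neither gene's difference was tested, since each group had 1 library. Of the 2606 genes past 2-fold in both tumor comparisons, 507 (19.5%) went in opposite directions, and of the 1307 past it in both exercise comparisons, 675 (51.6%) did.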

How the results depend on the processing

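Of 72 recomputed counts of called genes, 67 stayed within 1.5 times the reported count and 5 moved. With a 4-fold limit, 2 of the 10 genes (Ppp1r15a and Ern1) were past it with the tumor without exercise, in place of 8. No share of all genes at that limit stands beside this count. Over all genes, a minimum count in both libraries left 1600 genes called with exercise without tumor (3121 reported), 2626 with exercise with tumor (4437) and 2642 with the tumor in exercised muscle (4378), and a minimum of 16 left 1741 with exercise without tumor; in all of these fewer genes were tested. Of 200 log2 changes of the 10 genes, 190 stayed within their counting interval, 10 moved under total count scaling (Atf4, Hspa5, Xbp1 and Ddit3) and 0 calls reversed. That scaling shifted the median of all genes by 0.16 for exercise without tumor and by -0.15 for the tumor in exercised muscle, and put Hspa5 under 2-fold in the latter (0.88). Chac1 was past 2-fold with the tumor in sedentary muscle by a margin that total count and median of ratios scaling removed. Under total count scaling Trib3 became past 2-fold, higher with exercise without tumor and lower with the tumor in exercised muscle, the latter also with a pseudocount of 0. The 2 Ern1 calls on 4 against 0 reads were lost with a pseudocount of 0 or when the interval had to exclude 0. No paired analysis was possible because each group had 1 library. Leaving out a library was not possible either. Depth limits Ern1, Trib3 and Asns, with fewer than 100 reads in every library.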

Other observations

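The elements in the promoters of these genes were also counted over all genes, a look chosen after the data were seen. Of 37 gene symbols whose RefSeq window held the ER stress response element, 19 met the minimum count with the tumor in sedentary muscle. Of these, 7 were higher (36.8%) and 1 was lower (5.26%), beside 20.9% and 24.2% of all genes. The 7 include Hspa5, 1 of the 10 genes, and Canx and Derl3 from the lists above, so this share is not separate from the counts already given. Derl3 had 5 reads in E-T+ and 0 elsewhere and met the minimum only through that library. The 7 also include the near-identical copies Xlr3a and Xlr3b, which cannot be told apart with certainty. In exercised muscle 4 of 18 were higher (Hspa5 among them) and 3 lower (Xlr3a and Xlr3b among them) with the tumor. Of 319 tested genes whose window held the C/EBP-ATF sequence TGATGNAA, 79 were higher (24.8%) and 78 lower (24.5%) with the tumor in sedentary muscle, with a median change of -0.00. These are counts over 1 library per group and were not tested.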
